A study of Drosophila melanogaster with 3 samples.

Results

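The transfer RNA (tRNA) genes of the *Drosophila melanogaster* nuclear genome were examined in peak lists from chromatin immunoprecipitation and sequencing of Smox. The members were all genes of biotype tRNA on chromosomes 2L, 2R, 3L, 3R, 4 and X in the Ensembl annotation of the BDGP6 assembly, the build called dm6 in the deposited lists. There were 290 of them among 18164 annotated genes, and the other 17874 genes served as the comparison. The rule itself used no measured value, although earlier results of these data were known when it was chosen. The study had 1 group of 3 biological replicates, whole flies at the white prepupa stage with males and females pooled. They came from 1 transgenic line in which Smox carried a C-terminal green fluorescent protein (GFP), and an antibody to GFP pulled down the tagged protein. Every sample carried the fusion, so no condition was compared and each statement below concerns the position and strength of called regions. A whole animal mixes many cell types, and a region bound in few cells cannot be told apart from one bound weakly in many.

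tRNA genes are transcribed by RNA polymerase III (Pol III). Unlike most promoters, theirs lie inside the gene, where the A box and the B box are bound by TFIIIC, which places TFIIIB just upstream of the start so that it can recruit the polymerase. Smox is the fly receptor-regulated Smad of the Activin branch of TGF-β signalling, a DNA-binding factor that enters the nucleus once a receptor has phosphorylated it, and Smads are best known from genes transcribed by RNA polymerase II. Most fly tRNA genes are present in several identical or near-identical copies, often in clusters or inside introns of protein-coding genes.

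The deposited lists were of 3 kinds. Each replicate had a list of 30000 regions that mixes peaks and background, the pooled replicates had another 30000, and a thresholded list of 6622 regions was what the authors kept after comparing replicates by the irreproducible discovery rate (IDR). On the nuclear chromosomes the thresholded list held 6600 regions. A region has a summit, the base the authors' file marks as its peak, and a rank by the authors' peak caller score, where rank 1 is the strongest. Read depth is unknown, because the lists give no read counts. A gene was counted when a summit lay within 1 kb of its start, the first transcribed base. A transcription start site (TSS) below always means that of a protein-coding gene, and a gene or summit more than 1 kb from every such site is called TSS-free.

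The sequences below show the internal promoter of a few tRNA genes beside the DNA under strong TSS-free summits near them. They are not an unbroken run of the strongest. The loci of tRNA:Gly-GCC-1-6 and tRNA:Thr-AGT-1-1, at pooled ranks of 1181 and 1990, fall among them by rank and are not printed. All are from the RefSeq Release 6 genome, the build of the lists, written 5′ to 3′ on the strand of the tRNA gene. In the genes, capitals mark the first match to the B box core TTCNANNC. In the summit windows of 101 bp, capitals mark the 11 central bases, and the summit is the base in their middle. tRNA:Gln-TTG-2-1 reads the glutamine codon CAA and lies at chrX:3427452-3427523 on the minus strand, in an intron of CG12535. Its summit window is chrX:3427689-3427789.
tRNA:Gln-TTG-2-1 gene: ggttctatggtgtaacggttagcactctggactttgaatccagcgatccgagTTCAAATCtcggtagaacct
tRNA:Gln-TTG-2-1 summit: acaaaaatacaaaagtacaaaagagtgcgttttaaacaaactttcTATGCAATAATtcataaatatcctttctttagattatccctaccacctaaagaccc

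tRNA:Lys-TTT-1-1 is a lysine tRNA gene at chr2L:8290727-8290799 on the plus strand, in an intron of Btk, which encodes a Tec family tyrosine kinase. Its summit window is chr2L:8291014-8291114. tRNA:Leu-CAA-2-2, a leucine tRNA gene interrupted by its own short intron, lies between protein-coding genes at chr3L:13214109-13214233 on the plus strand, with the summit window at chr3L:13213507-13213607. tRNA:Ala-AGC-2-1, an alanine tRNA gene at chr3L:8028546-8028618 on the minus strand, lies in an intron of nmo, the gene of the Nemo kinase. Its summit window is chr3L:8027804-8027904, and its gene sequence has no match to the core as spelled here.
tRNA:Lys-TTT-1-1 gene: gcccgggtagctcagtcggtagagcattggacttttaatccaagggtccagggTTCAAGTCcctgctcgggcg
tRNA:Lys-TTT-1-1 summit: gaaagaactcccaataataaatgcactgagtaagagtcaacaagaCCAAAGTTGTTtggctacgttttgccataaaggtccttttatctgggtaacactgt
tRNA:Leu-CAA-2-2 gene: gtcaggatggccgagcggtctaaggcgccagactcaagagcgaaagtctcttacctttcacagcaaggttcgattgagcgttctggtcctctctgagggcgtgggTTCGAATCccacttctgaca
tRNA:Leu-CAA-2-2 summit: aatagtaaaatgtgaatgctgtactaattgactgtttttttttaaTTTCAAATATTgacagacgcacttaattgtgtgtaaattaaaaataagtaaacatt
tRNA:Ala-AGC-2-1 gene: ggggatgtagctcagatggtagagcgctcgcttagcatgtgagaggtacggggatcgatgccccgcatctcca
tRNA:Ala-AGC-2-1 summit: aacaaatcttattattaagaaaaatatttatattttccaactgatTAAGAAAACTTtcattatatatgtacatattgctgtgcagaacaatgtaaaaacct

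The 4 genes shown had GC contents of 47.2%, 58.9%, 55.2% and 58.9%, and their summit windows had 29.7%, 38.6%, 22.8% and 21.8% in the same order, so each summit lay in DNA of lower GC content than the tRNA gene beside it. Across all members the mean GC content of the gene was 58.1% ± 4.34 (SD, n = 290). Windows of 151 bp around the 25 thresholded summits within 1 kb of a tRNA start had 32.6% ± 6.46 GC (SD, n = 25), against 33.3% ± 7.39 for all 6600 thresholded summits (SD). Windows of the same width centred on tRNA genes had 45.0% ± 3.61 (SD, n = 290), and those at the starts of other genes had a mean of 42.0%.

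A script searched those windows on both strands for the B box core TTCNANNC and the A box core TNGCNNAG. These short strings may overlap each other, and a match describes letters and not a bound site. The B box core was present in 277 of 290 windows centred on tRNA genes, or 95.5%, and in 7 of 25 windows at thresholded summits near tRNA genes, or 28.0%. It was in 26.6% of windows at all thresholded summits and 28.9% of windows at the starts of other genes. The summits near tRNA genes therefore held this string about as often as any summit or gene start. The A box core was in 52.8% of tRNA gene windows, 24.0% of summit windows near tRNA genes, 17.6% of all thresholded summit windows and 22.4% of windows at other gene starts. On the transcribed strand of the gene itself the B box core was found in 271 members and the A box core in 144.

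The 290 genes formed 175 loci when starts within 1 kb of each other were linked, of which 107 held 1 gene and 68 held 2 or more, up to 7. They covered 22 amino acid classes, counting initiator methionine and selenocysteine apart, and 44 anticodons. Gene length had a median of 73 bp and ran from 71 bp to 186 bp. By protein-coding genes alone, 156 of them were intergenic, 127 lay in introns and 7 overlapped an exon. Overlap with noncoding genes was not examined. TSS-free starts made up 72.8% of the tRNA genes (211 of 290) but 15.8% of other genes (2823 of 17874). tRNA genes were therefore compared with all other genes and also class by class. The classes were TSS-free genes and genes with a TSS within 1 kb. The latter class does not match distance, because protein-coding genes start at a TSS themselves.

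In the thresholded list, 32 of 290 tRNA genes had a summit within 1 kb of the start, a share of 11% with a 95% Wilson interval of 7.93% to 15.2%. The background share among other genes was 16.2%, which lies above that interval. Intervals here cover counting error only, and because neighbouring tRNA genes can share 1 summit the genes are not independent. Counted by locus, 24 of 175 had a summit, or 13.7% (9.39% to 19.6%), an interval that includes the background share. The 211 TSS-free tRNA genes had 19 with a summit, or 9.0% (5.84% to 13.6%), against 10.7% of TSS-free other genes. The 79 tRNA genes with a TSS within 1 kb had 13, or 16.5%, against 17.2% of other genes in that class. Most of those other genes are protein-coding and were counted at their own TSS. Within each class the tRNA share was thus close to that of other genes.

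By biotype, the thresholded share at 1 kb was 14.2% for ncRNA genes, 13% for snoRNA genes, 12.5% for snRNA genes and 17.1% for protein-coding genes by the gene start. Among TSS-free genes it was 12.2% for ncRNA genes and 5.98% for snoRNA genes, on either side of the 9.0% of tRNA genes. Positions within 1 kb of a thresholded summit made up 8.35% of the nuclear chromosomes.

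Closer in, the thresholded list held no summit at a tRNA gene. Within 100 bp of the start, 0 of 290 tRNA genes had one, with an upper Wilson limit of 1.31%, against 565 other genes, or 3.16%. Among TSS-free genes this was 0 of 211 tRNA genes against 36 of 2823 other genes, or 1.28%, a share below the upper Wilson limit of 1.79% for the tRNA genes, so these were not separated. Within 250 bp the TSS-free shares were 1.42% of tRNA genes and 3.47% of other genes, and within 500 bp 3.79% and 6.23%. At 2 kb the order was the other way round, with 26.5% of TSS-free tRNA genes and 18% of TSS-free other genes. No thresholded summit lay inside a tRNA gene, the nearest was 135 bp from a tRNA start, and called regions reached into 3 of the 290 genes.

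**Figure D1:**
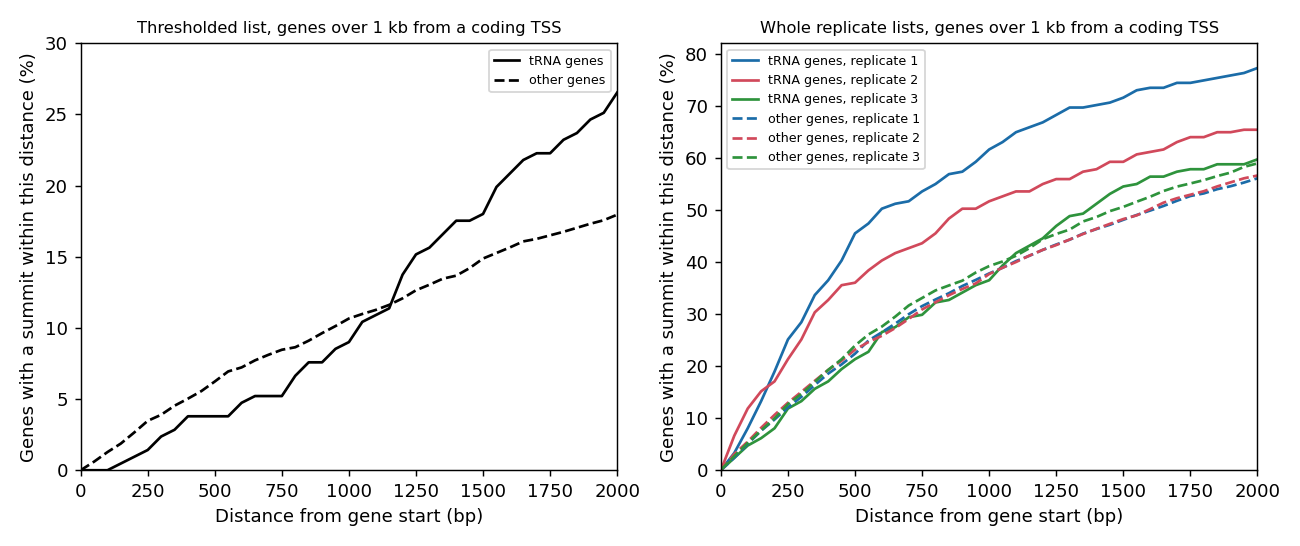
Cumulative percentage of TSS-free genes with a summit within a given distance in bp of the gene start, for tRNA genes (solid lines) and all other genes (dashed lines). The left panel is the thresholded list, where the tRNA curve starts at 0, lies below the other genes up to 1 kb (9.0% against 10.7%) and above them at 2 kb; the right panel gives the whole list of each replicate on its own scale, where tRNA genes stood above other genes in replicates 1 and 2 and close to them in replicate 3.

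Those 3 genes were tRNA:Val-CAC-1-1 at chr3R:17617761-17617833, tRNA:Arg-CCT-1-2 at chr2R:20000296-20000368 and tRNA:Glu-TTC-1-5 at chr2R:19727460-19727531. They were picked out after their values were seen. The nearest summits lay 135 bp upstream, 152 bp upstream and 281 bp downstream of their starts. The regions had pooled ranks of 6405, 4144 and 5104, so each stood in the weaker part of the thresholded list. For tRNA:Val-CAC-1-1 the strongest region within 1 kb ranked 5905, 7066 and 18754 in replicates 1, 2 and 3, within the length of the thresholded list in 1 replicate.

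The 25 thresholded summits within 1 kb of a tRNA start made up 0.379% of the 6600. Of these, 14 lay upstream of the nearest tRNA start and 11 beyond the end of the gene, so 56.0% were upstream (37.1% to 73.3%). Among the strongest 6622 regions of replicates 1, 2 and 3 the upstream share was 51.9%, 63.3% and 54.2%. The summits thus showed no clear side. Within 200 bp of a tRNA start there were 3 summits in the thresholded list, 45 in the whole pooled list, and 57, 57 and 25 in the whole lists of replicates 1, 2 and 3.

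**Figure D2:**
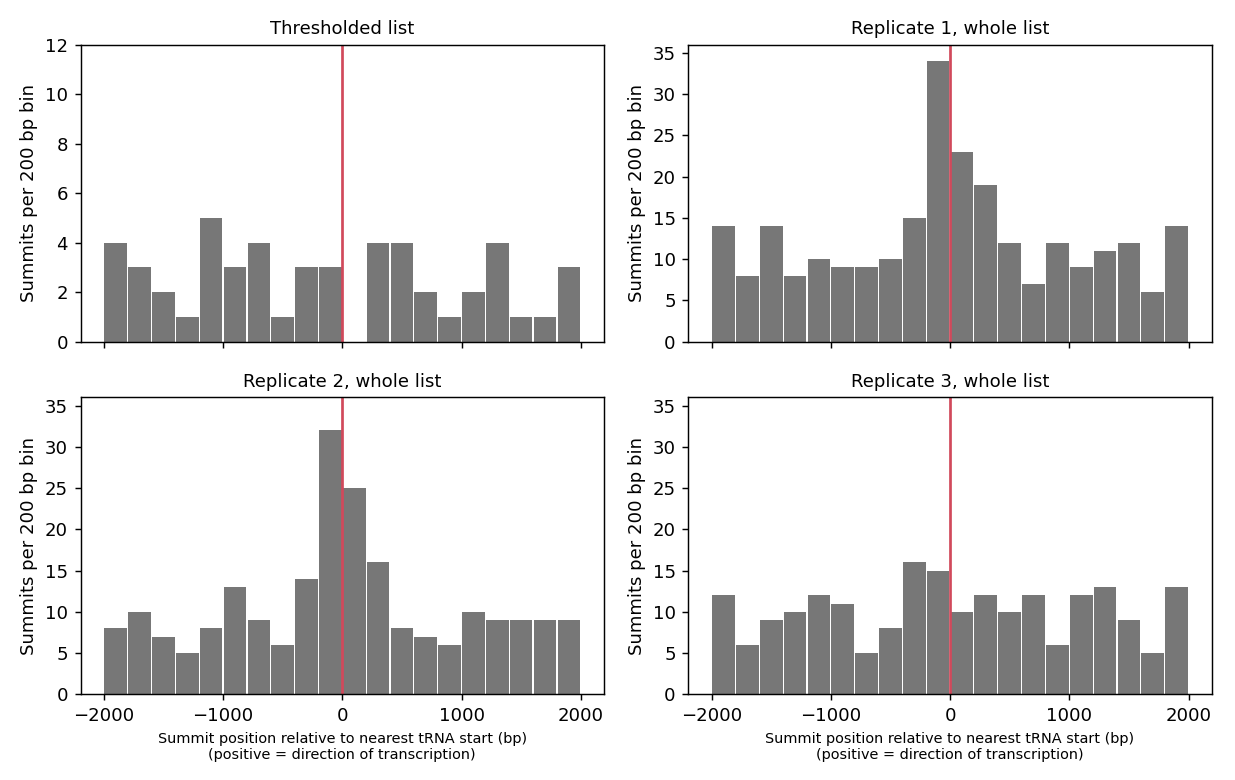
Number of summits per 200 bp bin by position in bp relative to the nearest tRNA start, with positive values in the direction of transcription and the start marked by the vertical line. The thresholded list (its axis ends at 12) shows 0 summits in the first 200 bp downstream; the whole lists of replicates 1 and 2 (axes end at 36) have their highest bins beside the start, with 34 and 32 summits in the 200 bp upstream, and replicate 3 has 15 there.

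The same counts were made in each replicate with its 6622 strongest regions, as many as the thresholded list holds. tRNA genes with a summit within 1 kb made up 14.5%, 12.4% and 10.7% in replicates 1, 2 and 3, a mean of 12.5% ± 1.90 (SD, n = 3). The background shares of other genes were 17.5%, 17.8% and 18.6%, a mean of 17.9% ± 0.548 (SD, n = 3). The tRNA share was lower in 3 of 3 replicates, by a mean difference of -5.42 percentage points ± 2.43 (SD, n = 3). The exact two-sided sign-flip permutation test gave p = 0.25, the smallest value that 3 replicates allow, so no difference could pass 0.05 here.

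Among TSS-free genes the difference went both ways. The TSS-free tRNA genes had 13.3%, 11.4% and 8.06%, against 10.2%, 10.6% and 9.74% of TSS-free other genes in replicates 1, 2 and 3 (mean difference 0.722 percentage points ± 2.39, SD, n = 3, exact sign-flip permutation p = 0.75). Within 100 bp, tRNA genes had 0, 0.345% and 0, against 3.12%, 4.17% and 3.97% of other genes (exact sign-flip permutation p = 0.25, n = 3), and the groups did not overlap. For TSS-free genes within 100 bp it was 0, 0.474% and 0, against 1.10%, 1.38% and 1.13% of TSS-free other genes. Within 250 bp the TSS-free differences were 0.78, -0.95 and -2.61 percentage points in replicates 1, 2 and 3, so beyond 100 bp the direction depended on the replicate.

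Of the 32 tRNA genes in the thresholded list, 21 had a summit among the strongest regions of all 3 replicates, 9 of exactly 2 and 2 of exactly 1, or 65.6%, 28.1% and 6.25%. For other genes in the thresholded list those shares were 74.5%, 16.9% and 8.01%. Outside the list, 3 tRNA genes had a summit among the strongest regions of all 3 replicates, and 239 of the 290 had none in any replicate. The pooled rank of the strongest thresholded summit had a median of 3023 for tRNA genes, with a range of 202 to 6405, and a median of 2527 for other genes.

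The 24 loci divided into 16 with a TSS-free summit, holding 21 genes, and 8 whose summits were all within 1 kb of a TSS, holding 11 genes. Those 21 genes were 7.24% of the members, and 1.70% of other genes had a TSS-free summit. These shares cannot be compared, because 13945 of the 17874 other genes are protein-coding. A summit within 1 kb of the start of such a gene is never TSS-free. The 12 strongest of the TSS-free kind and the 6 strongest of the other kind are described next, with each replicate's rank. A locus of the first kind was placed by its TSS-free summit, which left out tRNA:Val-CAC-2-5 in an intron of Naam. Its TSS-free summit had a pooled rank of 5165, while a stronger one, 469 bp downstream of its start and 430 bp from a TSS, had a pooled rank of 1425 and ranks of 1609, 1277 and 1799 in replicates 1, 2 and 3. Ranks are used because the caller's scores were set list by list.

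The strongest TSS-free region was the one at tRNA:Gln-TTG-2-1, with its summit 216 bp upstream of the tRNA start and 8068 bp from the nearest TSS. It ranked 306 in the pooled list and 230, 364 and 389 in replicates 1, 2 and 3, with caller scores of 443, 308 and 225. All 3 replicates put it far above the end of the thresholded list. The summit and the tRNA gene both lie within the host CG12535, and the region did not overlap the tRNA gene. The lists do not assign the region to either gene. The region at tRNA:Lys-TTT-1-1, whose sequence is shown above, had its summit 337 bp downstream and ranked 932 in the pooled list and 947, 958 and 1117 in replicates 1, 2 and 3. It lies in an intron of Btk and 6060 bp from the nearest TSS, that of Btk itself.

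The third in order was tRNA:Gly-GCC-1-6 at chr2L:14518621-14518691, 1 of a cluster of 3 identical glycine tRNA genes between protein-coding genes. Its summit was 766 bp upstream, with a pooled rank of 1181 and ranks of 1177, 1101 and 1531 in replicates 1, 2 and 3. At tRNA:Leu-CAA-2-2 the summit was 552 bp upstream, ranked 1678 in the pooled list and 1695, 2012 and 1628 in the replicates. That summit was 15135 bp from the nearest TSS, that of caps, which encodes a leucine-rich repeat cell surface protein. Every replicate had both among its strongest 6622, and their ranks varied little.

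Next came introns of developmental genes. tRNA:Thr-AGT-1-1 lies in an intron of tai, which encodes the Taiman coactivator of the ecdysone receptor, and its summit was 950 bp downstream, with a pooled rank of 1990 and replicate ranks of 2094, 2333 and 2234. At tRNA:Ala-AGC-2-1 in nmo the summit was 764 bp downstream and 28521 bp from the nearest TSS, with a pooled rank of 2016 and ranks of 2128, 2334 and 2220. tRNA:Glu-CTC-3-1, 1 of 3 glutamate tRNA genes in an intron shared by Ptp61F and ru, had its summit 925 bp upstream, with a pooled rank of 3811 and ranks of 4053, 6164 and 3027. In all of these the summit was well away from the tRNA gene, inside the same protein-coding host.

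At the remaining named TSS-free loci the gene nearest the summit was intergenic. The region at tRNA:Pro-AGG-1-2, in a cluster of 3 proline tRNA genes of which the other 2 overlap an exon of osp, had a pooled rank of 3199 and ranks of 3324, 4090 and 2706 in replicates 1, 2 and 3. tRNA:Ser-AGA-2-2 on X had a pooled rank of 4659 and ranks of 5037, 6275 and 5284. Both lay within the strongest 6622 regions in every replicate. The other 3 did not: tRNA:Ala-TGC-2-1 had 4618, 3385 and 8800, tRNA:Arg-CCT-1-2 had 4634, 3549 and 7178, and tRNA:Gly-TCC-2-2 had 5103, 9039 and 4719. Replicate 3 gave the weakest rank at the first pair and replicate 2 at the last.

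Where a TSS lay within 1 kb of the summit, the regions were partly stronger, and the tRNA gene and the protein-coding promoter cannot be told apart by position. The strongest of all was at tRNA:Tyr-GTA-1-8 (chr3R:8669081-8669174), in a cluster of 3 tyrosine tRNA genes within p and CG8036. Its summit was 193 bp upstream of the tRNA start and 251 bp from the CG8036 TSS, with a pooled rank of 202 and ranks of 184, 183 and 269 in replicates 1, 2 and 3. At tRNA:Val-TAC-1-1 the summit was 846 bp from the tRNA start but 151 bp from the TSS of lama, with a pooled rank of 456 and ranks of 525, 278 and 753. At tRNA:Phe-GAA-1-2 it was 280 bp from the tRNA start and 25 bp from the TSS of the ribosomal protein gene RpL17, with a pooled rank of 1763 and ranks of 3641, 1299 and 1425. In the last 2 cases the TSS was much nearer than the tRNA start.

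The others in this set were tRNA:Arg-TCT-1-1 (pooled rank 1953, 95 bp from the TSS of CG34228), tRNA:Leu-TAA-2-1 (pooled rank 2346, 345 bp from that of CG13605) and tRNA:Asp-GTC-1-5 (pooled rank 2847, 86 bp from that of the semaphorin gene Sema1a). Their replicate ranks were 2216, 2153 and 2055 for the arginine gene, 3036, 2090 and 2696 for the leucine gene and 2995, 2960 and 3303 for the aspartate gene. Every replicate had all 6 regions of this kind among its strongest 6622. At tRNA:Leu-TAA-2-1 the summit was 230 bp upstream of the tRNA start, nearer than the TSS, and at the other 2 the TSS was nearer.

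**Figure D3:**
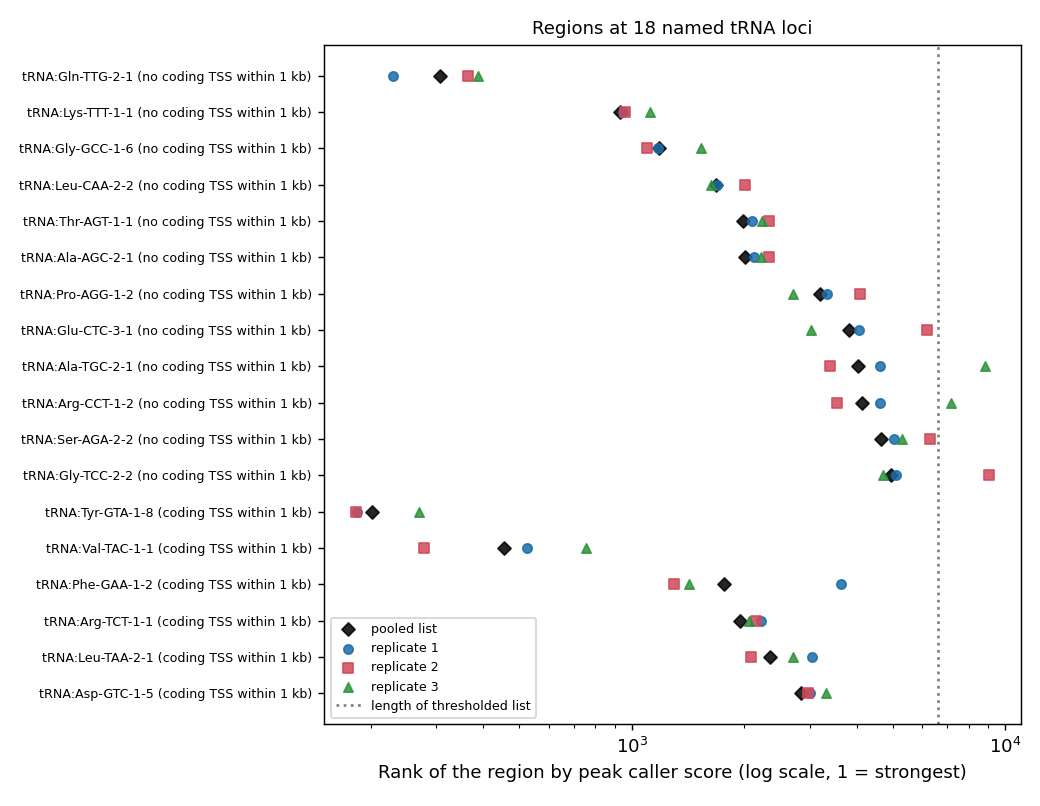
Rank of the called region at 12 tRNA loci with a TSS-free summit (above) and 6 whose summit is within 1 kb of a coding TSS (below), on a log axis where 1 is strongest; diamonds are the pooled list and the other symbols replicates 1, 2 and 3, and the dotted line is the length of the thresholded list (6622). The glutamine locus at ranks 230 to 389 and the tyrosine locus at 183 to 269 stand apart at the strong end, and symbols to the right of the line belong to tRNA:Ala-TGC-2-1, tRNA:Arg-CCT-1-2 and tRNA:Gly-TCC-2-2.

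Thresholded summits were spread over many amino acid classes. Proline had 4 of 17 genes, and alanine 3 of 17, arginine 3 of 26, glutamate 3 of 19 and valine 3 of 15. Aspartate had 2 of 14, glycine 2 of 20, isoleucine 2 of 11, leucine 2 of 22 and tyrosine 2 of 10. There was 1 gene each for glutamine (of 12), lysine (of 19), elongator methionine (of 6), phenylalanine (of 8), serine (of 20) and threonine (of 17). None of the 10 asparagine, 7 cysteine, 5 histidine, 8 tryptophan, 6 initiator methionine or 1 selenocysteine genes had one. With so few genes a class, no class could be set apart from the 11% of all tRNA genes.

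The count of 0 for histidine hides a region that every replicate ranked high, described here after its values were seen. Within 1 kb of tRNA:His-GTG-1-2 and tRNA:His-GTG-1-3 on 2R, 1 region ranked 1468, 1194 and 1291 in replicates 1, 2 and 3. Its summit was 174 bp, 133 bp and 168 bp upstream of tRNA:His-GTG-1-3, whose start is 250 bp from the TSS of CG8490. That TSS lies on the same side, so in every replicate the summit was nearer to it than to the tRNA start. The tRNA gene and the protein-coding promoter cannot be told apart here by position. The pooled list, from which the thresholded one derives, had no summit in a stretch of 73735 bp around these genes, where replicates 1, 2 and 3 had 7, 4 and 11 summits. Gaps at least that long between neighbouring pooled summits numbered 80. Of the 1000 strongest nuclear regions of replicates 1, 2 and 3, 17, 18 and 27 had no pooled summit within 1 kb. The other 3 histidine genes had no region among the strongest 6622 of any replicate.

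**Figure D4:**
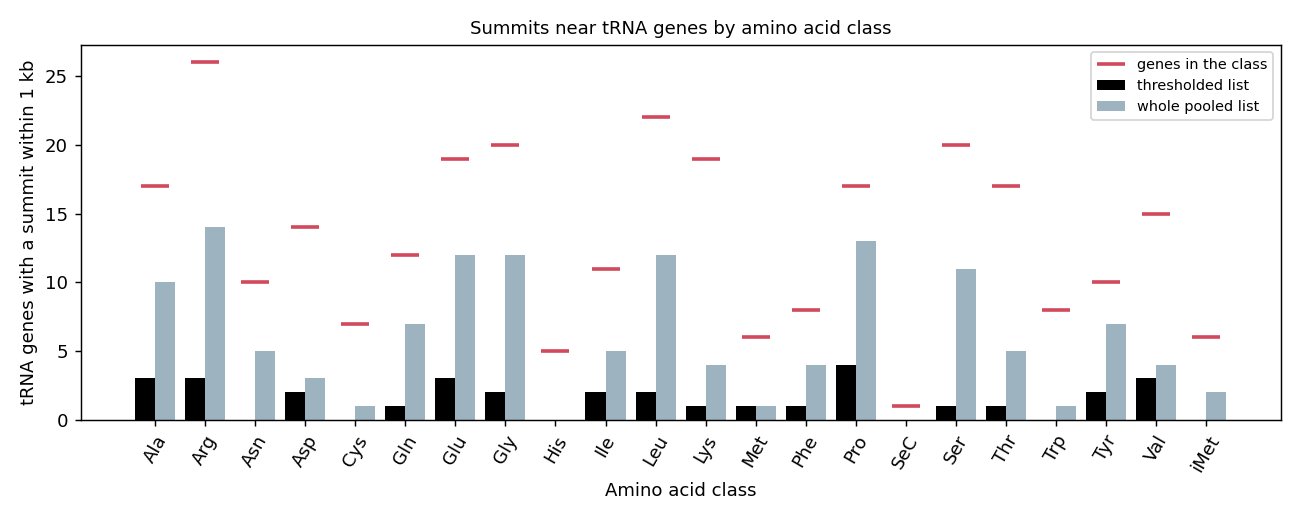
Number of tRNA genes with a summit within 1 kb of the start by amino acid class, in the thresholded list (black bars) and the whole pooled list (grey bars); red marks give the number of genes in the class. The thresholded bars reach at most 4 genes (proline), and in the whole pooled list the count is 0 for histidine and selenocysteine only, although all 3 replicates had a region at 2 of the 5 histidine genes.

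By chromosome, the thresholded share of tRNA genes was 17.1% on 2L (7 of 41), 11.2% on 2R (11 of 98), 8.33% on 3L (4 of 48), 7.59% on 3R (6 of 79) and 16.7% on X (4 of 24). Other genes had 15.4%, 14.2%, 16.8%, 16% and 19.5% on the same chromosomes in that order, and chromosome 4 has no member. Intergenic tRNA genes had a summit in 21 of 156 cases, or 13.5% (8.98% to 19.7%), and intronic ones in 10 of 127, or 7.87% (4.33% to 13.9%). Loci of 2 or more genes had 11 of 68, or 16.2% (9.28% to 26.7%), and single-gene loci 13 of 107, or 12.1% (7.24% to 19.7%). Each of these pairs of intervals overlapped.

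Initiator methionine tRNA starts every protein, and no thresholded summit came within 1 kb of any of its 6 genes. By pooled rank the closest to the list was tRNA:iMet-CAT-2-1, in an intron of Mmp2, which encodes a matrix metalloproteinase. A region within 1 kb of it had a pooled rank of 6970, just past the length of the thresholded list, and ranks of 7308, 8278 and 7327 in replicates 1, 2 and 3. The other 5 had a thresholded summit between 1225 bp and 1979 bp away. Of these, tRNA:iMet-CAT-1-3 had ranks of 14696 and 13408 in replicates 2 and 3 and none in replicate 1, and tRNA:iMet-CAT-1-1 and tRNA:iMet-CAT-1-2 had 14361 and 21979 in replicates 1 and 2 and none in replicate 3. tRNA:iMet-CAT-1-4 and tRNA:iMet-CAT-1-5, in an intron of ome, had none in any list. The selenocysteine gene tRNA:SeC-TCA-1-1 had a region in replicate 3 alone, at rank 17471.

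The largest clusters, 3 of which were named by size with a tie at 6 genes, had no thresholded summit within 1 kb of any gene. The 7 isoleucine and leucine genes in ATP8A at chr2R:13430282-13432794 had 5729 bp to the nearest one, and their strongest whole-list regions ranked 16373, 13384 and 8393 in replicates 1, 2 and 3. The 7 arginine and serine genes at chrX:14014814-14017284 were 18633 bp from a thresholded summit and ranked 8693 and 8131 in replicates 1 and 2, with none in replicate 3. The 6 cysteine and lysine genes in Cht7 at chr3L:3095737-3097590 had a region in replicate 1, at rank 4595, and none in replicates 2 and 3. Another cluster of 6 genes, that of tRNA:Asn-GTT-1-10 and 5 arginine genes on 3R, also had no thresholded summit within 1 kb, and its strongest regions ranked 13218 in the pooled list and 10636, 12913 and 15619 in replicates 1, 2 and 3.

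The whole lists, which also hold background regions, gave another picture. In the pooled list 133 of 290 tRNA genes had a summit within 1 kb, or 45.9%, against a background of 36.3%. In the replicates the tRNA share was 60.3%, 50% and 40.7%, a mean of 50.3% ± 9.83 (SD, n = 3), against background shares of 40.1%, 40.1% and 42.2%, a mean of 40.8% ± 1.18 (SD, n = 3). The differences were 20.2, 9.86 and -1.48 percentage points in replicates 1, 2 and 3 (exact sign-flip permutation p = 0.5, n = 3). tRNA genes thus stood above other genes in 2 replicates and slightly below in the other.

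TSS-free genes showed the same order. TSS-free tRNA genes had 61.6%, 51.7% and 36.5% in replicates 1, 2 and 3, against 37.8%, 37.7% and 39.2% of TSS-free other genes (mean difference 11.7 percentage points ± 13.4, SD, n = 3, exact sign-flip permutation p = 0.5). TSS-free ncRNA genes had 42.4%, 42.4% and 44.0%. The share of the nuclear chromosomes within 1 kb of a whole-list summit was 32%, 32.2% and 33.5%, so the coverage of the 3 lists differed far less than their tRNA shares. Which replicate-level property went with the tRNA share was not tested, since depth is not given.

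Whole-list regions at tRNA genes ranked weaker than those at other genes. Among tRNA genes with a region, the strongest one had a median rank of 11669, 12092 and 11160 in replicates 1, 2 and 3, and among other genes with a region 8077, 7909 and 8249. Of the 290 tRNA genes, 79 had a summit in all 3 whole lists, 56 in exactly 2, 89 in exactly 1 and 66 in none, or 27.2%, 19.3%, 30.7% and 22.8%. Other genes had 25.2%, 13.6%, 19.6% and 41.6%. tRNA genes with a region in all 3 replicates were thus about as frequent as other genes, and most of the remainder had it in 1 or 2 replicates. In 65 tRNA genes no summit lay within 1 kb in any of the 5 lists, the first by name being tRNA:Ala-AGC-2-10, tRNA:Ala-CGC-1-1 and tRNA:Ala-CGC-1-2.

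Whole-list summits came close to the genes as well. Within 100 bp, TSS-free tRNA genes had 8.06%, 11.8% and 4.74% in replicates 1, 2 and 3, against 5.07%, 5.49% and 5.24% of TSS-free other genes. Inside a tRNA gene itself lay 7 summits of the pooled list and 9, 14 and 6 of replicates 1, 2 and 3. The pooled summits inside genes ranked from 10245 to 24095, all well past the length of the thresholded list. Most thresholded regions were 444 bp wide with the summit in the middle (60.3% of regions had that width, 99.9% of these with the summit within 1 bp of the middle), so such summits are interval midpoints.

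The strongest of the summits inside a gene were at tRNA:Tyr-GTA-1-5 (chr3R:8642701-8642793, minus strand), at base 27 of the gene, and tRNA:Pro-AGG-1-7 (chr3L:13212365-13212436, plus strand), at base 45. The strongest regions within 1 kb of the tyrosine gene ranked 7167, 11227 and 9642 in replicates 1, 2 and 3, past the thresholded length in each, with summits 56 bp, 82 bp and 251 bp downstream of its start. Those of the proline gene ranked 4935, 3225 and 6167, within it in each, but their summits were 657 bp, 678 bp and 660 bp downstream of the start and so were not the region inside the gene, which ranked 10313 in the pooled list. The genes are printed with the B box core in capitals, downstream of both pooled summits.
tRNA:Tyr-GTA-1-5 gene: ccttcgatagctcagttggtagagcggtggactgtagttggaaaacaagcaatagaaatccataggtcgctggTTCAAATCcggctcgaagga
tRNA:Pro-AGG-1-7 gene: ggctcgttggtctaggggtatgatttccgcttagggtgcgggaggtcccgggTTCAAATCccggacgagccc

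Identical copies matter for mapping, since a read from inside a repeated gene has several possible origins. An identical copy elsewhere among the members was found for 238 genes, with up to 13 copies of 1 sequence, and 52 genes were unique. In the thresholded list 9.24% of genes with a copy had a summit within 1 kb (6.18% to 13.6%), against 19.2% of unique genes (10.8% to 31.9%). Within 250 bp it was 1 of 238 genes with a copy and 4 of 52 unique genes, or 0.420% and 7.69%, and within 100 bp 0 in both.

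The replicates varied in the same direction. In the whole lists, genes with a copy had 59.7%, 47.1% and 36.1% in replicates 1, 2 and 3, against 63.5%, 63.5% and 61.5% of unique genes (mean difference -15.2 percentage points ± 10.9, SD, n = 3, exact sign-flip permutation p = 0.25, the smallest possible). At 1 kb in the whole lists the unique genes thus varied less between replicates than the genes with copies. This did not hold for the strongest 6622 regions, where genes with a copy had 13%, 10.1% and 10.1%, against 21.2%, 23.1% and 13.5% of unique genes. Within 250 bp in the whole lists the spreads differed little. Genes with a copy had 24.4%, 20.2% and 10.9% (SD 6.88, n = 3), against 28.8%, 34.6% and 23.1% of unique genes (SD 5.77, n = 3). How the authors treated reads with several origins is not given in the sources used here, and its part in these shares was not tested.

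Pol III also makes a few other small RNAs. A thresholded summit lay within 1 kb of 1 of the 9 genes matched, or 11.1%, beside 16.2% of all genes other than tRNA genes. Among the strongest 6622 regions of replicates 1, 2 and 3 the share was 11.1%, 22.2% and 44.4%, beside 17.5%, 17.8% and 18.6%. So few genes cannot be set apart from the background. The gene with a thresholded summit was snRNA:7SKa, whose RNA holds the elongation factor P-TEFb inactive. Its summit was 190 bp from the start, with a pooled rank of 3355 and ranks of 2455, 3238 and 6476 in replicates 1, 2 and 3. RNaseMRP:RNA, the RNA of an enzyme that processes ribosomal RNA, had a pooled rank of 6662, just outside the thresholded list, and ranks of 13643, 4317 and 3982. The spliceosomal U6 genes snRNA:U6:96Ab and snRNA:U6:96Ac shared a region at ranks 7560 and 3861 in replicates 1 and 3 and had none in replicate 2, and snRNA:U6:96Aa had 15003 in replicate 3 alone. 7SLRNA:CR42652 had 22365 in replicate 1 alone, and 7SLRNA:CR32864, RNaseP:RNA and snRNA:U6atac had none in any list. For comparison, 3 of 24 snRNA genes transcribed by Pol II had a thresholded summit, namely snRNA:U4:39B at rank 2494, snRNA:U11 at 2528 and snRNA:U1:95Ca at 3559. The summit at snRNA:U11 was 955 bp away.

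Genes whose products make or use tRNA were then listed by role, with all protein-coding genes as the background, of which 18.9%, or 2639 of 13945, had a thresholded summit that close to a TSS. These lists are short, and their counts are descriptions. Of 11 Pol III subunit genes, 4 had a summit, or 36.4%, and 36.4% had one among the strongest regions of each replicate, though not the same genes each time. They were Polr1D, whose product is shared with RNA polymerase I (pooled rank 819; 685, 896 and 1134 in replicates 1, 2 and 3), Polr3E (1040; 867, 1318 and 1303), Polr3F (3644; 3850, 4189 and 4641) and Polr3G. The Polr1D summit was 927 bp from a TSS, and the strongest within 500 bp ranked 3479. Polr3G had a pooled rank of 3945 and 3241, 3879 and 16653, so replicate 3 did not have it among its strongest regions. Polr1C and Polr3A had no thresholded summit.

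Of 12 genes of Pol III factors, 3 had a thresholded summit, or 25%, and each stood within the strongest 1000 regions of every replicate. Bdp1, a subunit of TFIIIB, had a pooled rank of 170 and ranks of 159, 233 and 139 in replicates 1, 2 and 3, with the summit 99 bp from a TSS. Brf, another TFIIIB subunit, had a pooled rank of 360 and ranks of 314, 472 and 313, with the summit at 149 bp. CG7099 had a pooled rank of 321 and ranks of 281, 434 and 263. By pooled rank Bdp1 stood above every TSS-free tRNA locus, and CG7099 and Brf above all but that of tRNA:Gln-TTG-2-1. La, which binds the uridine tail of new Pol III transcripts, had no thresholded summit but ranked 4602, 4797 and 5307 in the replicates, and Maf1, a repressor of Pol III, ranked 8328, 5972 and 7119.

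Of 30 tRNA maturation genes, 5 had a thresholded summit, or 16.7%, near the background. Tcs5, the kinase of the complex that makes the threonylcarbamoyl modification of adenosine, had the strongest, at pooled rank 15 and at 18, 26 and 10 in replicates 1, 2 and 3. Also present were Rpp14b (909, with the summit 805 bp from a TSS), Archease, a cofactor of the ligase that joins tRNA exons (1865), and RNaseZ, which trims the tail of the precursor (3022). Adat1 and CG10927 had none.

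The cytosolic aminoacyl-tRNA synthetases, which load each tRNA with its amino acid, had 4 of 20 genes with a thresholded summit, or 20.0%. They were SerRS at pooled rank 534, GluProRS at 807, AspRS at 1175 and AlaRS at 2404, while ArgRS and AsnRS had none. GluProRS ranked 864 and 710 in replicates 1 and 3 and had no region in replicate 2. The mitochondrial synthetases had 2 of 15, or 13.3%, with LeuRS-m at rank 444 and ArgRS-m at 2634, and none at AlaRS-m or AsnRS-m. The LeuRS-m summit was 914 bp from a TSS. In the thresholded list both classes lay near the background of 18.9%.

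The limits of the rule fell among ordinary values. Just inside 1 kb lay tRNA:Glu-CTC-3-1 at 925 bp, tRNA:Thr-AGT-1-1 at 950 bp and tRNA:Pro-AGG-1-3 at 977 bp, and just outside lay tRNA:Glu-CTC-2-1 at 1009 bp, tRNA:Met-CAT-1-2 at 1034 bp and tRNA:Glu-TTC-1-4 at 1037 bp. By pooled rank the last loci inside the thresholded list were those of tRNA:Ile-AAT-1-8 at 5606, tRNA:Pro-CGG-2-1 at 6016 and tRNA:Pro-TGG-1-1 at 6405. The first outside were those of tRNA:iMet-CAT-2-1 at 6970, tRNA:Leu-AAG-1-4 at 7283 and tRNA:Leu-TAA-4-1 at 7621.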

How the data were processed

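Regions bound by GFP-tagged Smox were deposited for 3 biological replicates of 1 group, and chromatin was sonicated to fragments of 200 bp to 800 bp, per the labels. Per the file listings, the authors called regions on each replicate and on the pooled replicates, with 1 control alignment each time, and derived the thresholded list by IDR. The sources used here do not name the aligner, the caller, the IDR cutoff or the kind of control. A deposited line holds an interval, a score from the authors' caller on an unstated scale, a −log10 q-value from the authors, and the summit's offset from the interval start. Values were used as deposited, on the dm6 build; the dm3 copies were not used.

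Ranks follow the score, tied scores by position. Genes came from Ensembl release 115 (BDGP6.54), without transposable elements, and sequences from RefSeq Release 6. A gene counted with a summit within 1 kb of its start, and a protein-coding gene in the role lists within 1 kb of any own TSS. The 6622 strongest regions of each replicate matched the length of the thresholded list. Overlap of a region and a gene needed 1 bp. Shares have 95% Wilson intervals. Replicates were compared by an exact two-sided sign-flip permutation test. Counting was tested on simulated summits. Python 3.11.15, numpy 2.4.6, pandas 2.3.3 and matplotlib 3.10.9 were used.

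The members and lists were chosen with earlier results of these data known. Named loci were the 12 strongest TSS-free and 6 strongest near a TSS, the 3 largest clusters, all initiator and selenocysteine genes, the first 3 by name without a summit, all other Pol III RNA genes, up to 4 members with and 2 without a summit per role list, and 3 loci on each side of a limit; other genes named were chosen after their values were seen. Alternatives were other windows, other lists, other rankings, other TSS and linking distances, and leaving out each replicate. The values of 1 maturation gene are not reported here.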

Additional observations from a re-analysis of the deposited data

Results flagged for a closer look

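The mitochondrial chromosome lies outside the comparisons above, which used nuclear tRNA genes. The thresholded list held 22 regions on it, the strongest at pooled rank 29, and all 22 mitochondrial tRNA genes had a summit within 1 kb. Replicates 1, 2 and 3 had 23, 26 and 17 mitochondrial regions in their whole lists, with a summit within 1 kb of 22, 22 and 21 of these genes. The share of this chromosome within 1 kb of a summit was not computed. With so many summits on it, the counts are no result about tRNA genes. No control library was analysed here, so these are values without a background.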

How the results depend on the processing

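The window decided most shares. With windows of 250 bp, 500 bp and 2 kb, the thresholded share was 1.72%, 4.83% and 25.2% over tRNA genes; 1.42%, 3.79% and 26.5% over TSS-free genes; 2.53%, 7.59% and 21.5% over genes near a TSS; 2.86%, 6.86% and 26.9% over loci; and 1.03%, 2.76% and 18.3% for TSS-free summits (7.24% at 1 kb). The tRNA share minus that of other genes, -5.16 percentage points as reported, turned to 3.12 at 2 kb and to 9.57 in the whole pooled list, was -2.20 for the strongest 1000 regions, and was -15.1 when a region had to overlap the gene body, a measure under which other genes are longer. In the order all genes, TSS-free genes, genes near a TSS, loci and TSS-free summits, overlap of the gene body gave 1.03%, 1.42%, 0, 1.71% and 1.03%. The strongest 1000 regions gave 1.72%, 0.948%, 3.80%, 2.29% and 0.690%, regions strong in all 3 replicates 7.59%, 5.69%, 12.7%, 9.71% and 4.14%, and the whole pooled list 45.9%, 45.0%, 48.1%, 48.0% and 32.4%. Leaving out each replicate meant taking the mean of the other 2, with shares counted among each replicate's own strongest regions. The thresholded list was not made again without a replicate, so its shares were not tested in this way. In the same order these means were 11.6% to 13.4%, 9.72% to 12.3%, 16.5% to 17.7%, 14% to 15.4% and 6.72% to 8.97%. The differences were -6.62 to -4.19, the replicate mean 11.6% to 13.4% and the median rank 3149 to 3342. The replicate mean was 50.3% over whole lists and 1.61% over the strongest 1000 regions. Genes near a TSS had 18.8% with a TSS distance of 500 bp and 12.2% with 2 kb, loci linked at 5 kb 16.7%, and the upstream share was 62.5% for TSS-free summits. With a window of 500 bp, the role lists gave 8.33% for Pol II snRNA genes, 13.3% for maturation genes and 6.67% for mitochondrial synthetases. Ranking by the −log10 q-value moved single regions, such as that at tRNA:Leu-CAA-2-2 to rank 3948, at tRNA:Leu-TAA-2-1 to 5194 and at tRNA:Arg-CCT-1-2 to 1754. Where no reason is given, the cause was not tested. No paired analysis was possible because the study has 1 group.

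Depth is unknown, 3 replicates allow no p below 0.25, and no expression was measured.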
